A study of Mus musculus with 6 samples.

Results

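The genes described here carry, take up, store, export and sense iron: Trf, Tfrc, Slc11a2, Slc39a14, Fth1, Ftl1, Slc40a1, Cp, Aco1 and Ireb2. They are 10 of the 55335 genes in the deposited count table, and all 10 passed the filter on low counts that left 17687 genes for testing. The set was put together by function after a rise of Trf had been seen in these libraries, so Trf is given as a description with no test. RNA came from retinas of C57BL/6 mice aged 10 weeks, labelled wild type. An antibody against HA, a short peptide tag, pulled down tagged material from homogenised retina and the labels give retinal ganglion cells, which send their axons through the optic nerve, as the cell type. The labels do not name the tagged protein, the promoter that drives it or the number of animals in a library. There were 3 libraries from naive mice and 3 from mice with raised eye pressure (SOHU), in which silicone oil had been placed in the anterior chamber 1 week before the retinas were taken. Separate animals are not stated for the libraries of a group, and p-values therefore rest on a spread between samples that may be technical.

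Cells take up iron bound to transferrin (Trf) through the transferrin receptor (Tfrc), and the divalent metal transporter DMT1 (Slc11a2) then moves it out of the endosome. ZIP14 (Slc39a14) takes up iron that is not bound to transferrin, ferritin built of heavy (Fth1) and light (Ftl1) chains stores it, and ferroportin (Slc40a1) exports it with the help of ferroxidases such as ceruloplasmin (Cp). The iron regulatory proteins IRP1 (Aco1) and IRP2 (Ireb2) bind iron-responsive elements, short RNA hairpins, when iron is scarce: elements in a 5′ UTR block translation and those in the 3′ UTR of the Tfrc mRNA stabilise it. In the retina Müller glia are a known source of Trf and Cp, and mice that lack both Cp and its relative hephaestin load the retina with iron.

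The hairpins are shown because the iron regulatory proteins bind such elements. The search used a strict pattern, so an element of another shape in any member would be missed. GENCODE M21 transcripts on mm10 were searched on the sense strand for the 6-base loop CAGTGN with 5 bases on either side that all pair (G-T pairs allowed), a bulged C before them, and at least 3 of 5 pairs in the stem below. Matches were found in 4 of the 10 genes, at 7 sites in all, and in 0.434% of the 21901 protein-coding genes searched. Loops are in capitals, and each site is read 5′ to 3′ on the strand of its gene.
Fth1 5′ UTR, chr19:9982733-9982759, plus strand: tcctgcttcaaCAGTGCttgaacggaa
Ftl1 5′ UTR, chr7:45459780-45459806, minus strand: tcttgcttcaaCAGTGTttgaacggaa
Slc40a1 5′ UTR, chr1:45925466-45925492, minus strand: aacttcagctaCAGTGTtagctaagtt
Tfrc 3′ UTR, chr16:32631220-32631246, plus strand: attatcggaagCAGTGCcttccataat
Tfrc 3′ UTR, chr16:32631599-32631625, plus strand: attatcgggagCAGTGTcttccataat
Tfrc 3′ UTR, chr16:32631664-32631690, plus strand: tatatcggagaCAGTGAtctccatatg
Tfrc 3′ UTR, chr16:32631711-32631737, plus strand: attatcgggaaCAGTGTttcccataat
The sites of the 2 ferritin chains were identical at 25 of 27 bases, whereas the Slc40a1 site matched each of them at 13. Among the 4 Tfrc sites, pairs were identical at 17 to 25 of 27 bases. A match is a description of sequence and not a measured binding site, and no match in the other members says only that these letters were not found.

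Libraries held 21691354 to 26824919 counted reads. Summed over 16 markers, ganglion cell genes made up 0.419 to 0.684% of the counts in naive and 0.207 to 0.298% in SOHU libraries, and 15 of 16 fell with a median log2 fold change of -1.06. The most abundant of them, the neurofilament gene Nefl and the synuclein gene Sncg, differed by -1.23 and -1.32 on that scale. Müller glia and astrocyte markers (15 genes) made up 1.09 to 1.38% and 1.94 to 3.42%, with 10 higher of 14 tested and a median of 1.09. Of their most abundant genes the lipid carrier gene Apoe rose 2.69-fold (edgeR adjusted p = 0.0124), and Dkk3 was 1.53-fold higher and did not pass (adjusted p = 0.0588). Fewer cells of a type and less RNA per cell cannot be told apart in these bulk samples, and the iron genes cannot be assigned to a cell type from them.

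Together the 10 genes took 0.168, 0.252 and 0.198% of the counts in naive replicates 1 to 3 and 0.592, 0.484 and 0.384% in SOHU replicates 1 to 3. Trf made up 18.6 to 26.7% of these reads in naive and 37.6 to 55.5% in SOHU libraries. The sum holds Trf, whose rise led to the choice of the genes, so its difference is a description and not a result about the set. In naive and SOHU means Trf took 0.0467 and 0.220% of the counts and Cp 0.0601 and 0.151%. Fth1 took 0.0585 and 0.0625% and Ftl1 0.0260 and 0.0383%. Of the 9 members other than Trf, Cp and Ftl1 rose, Tfrc fell and 6 did not pass at an edgeR adjusted p under 0.05. Across all genes tested 13.9% passed (8.02% higher and 5.93% lower), and since the members were chosen on this contrast no more is read from the count. Of the same 9, all SOHU libraries lay above the naive ones in 3 and below them in 1, and of all genes 39.0% had groups that did not overlap (19.3% above, 19.7% below). The median log2 fold change of the 9 was 0.28, beside 0.01 for all genes tested.

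Of these 9 genes 3 passed here and 3 with DESeq2, which called 21.2% of all genes. Without naive replicate 1 or naive replicate 3 edgeR called 0 of the 9 and also 0 of all 18198 and 18320 genes tested, while 3 of the 9 had an unadjusted p under 0.05 in each case. Without naive replicate 2 the count was 1 (4.85% of all genes). Leaving out SOHU replicate 1 gave 1 (11.1%), replicate 2 of that group 0 (1.85%), with 4 at an unadjusted p under 0.05, and replicate 3 of it 3 (21.6%). With the replicate number as a block it was 3 (11.7%), and with no filter on low counts it was 2 (10.5%).

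**Figure D1:**
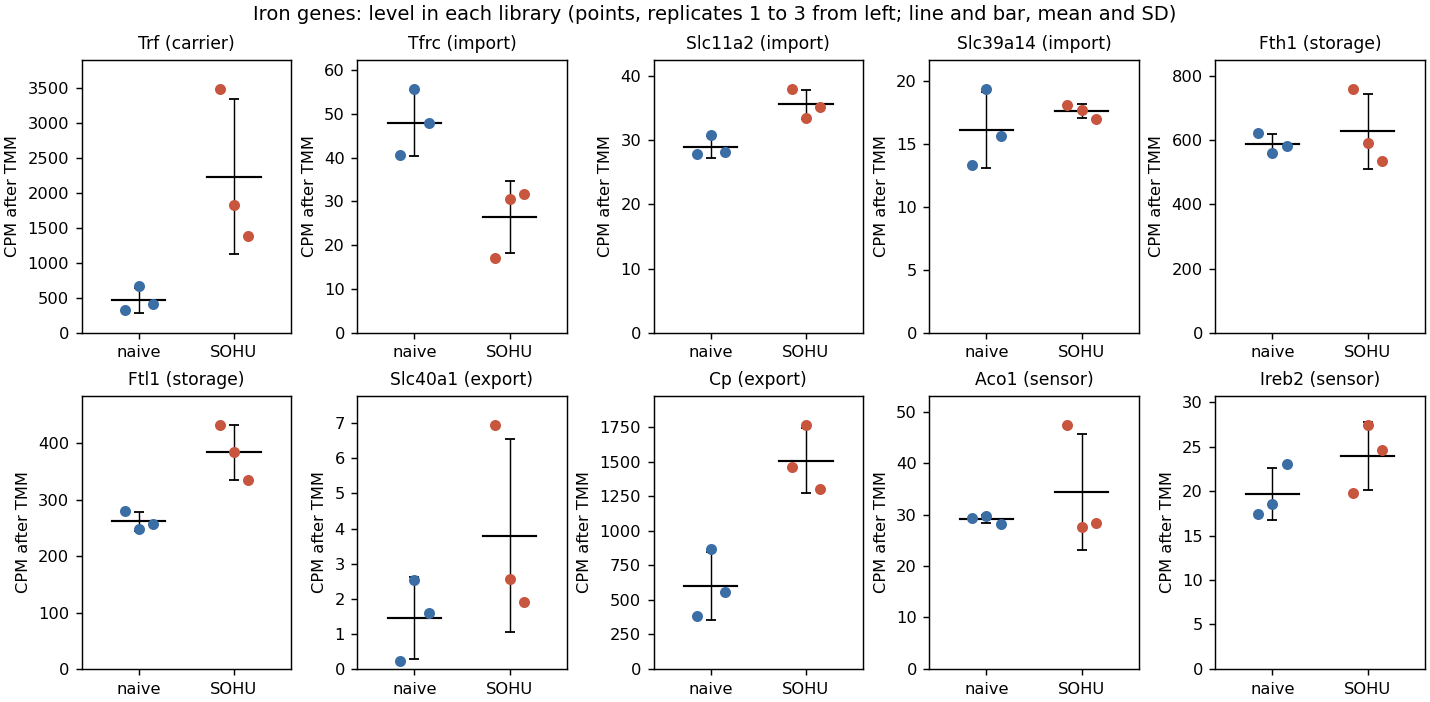
Level of each iron gene (y axis, CPM after TMM scaling) in 3 naive and 3 SOHU libraries. Points are libraries, in the order of replicates 1 to 3 from the left, and lines with bars are the mean and SD. In Trf, Cp, Ftl1 and Slc11a2 all SOHU libraries lie above all naive libraries, in Tfrc all lie below, and the other 5 genes overlap.

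The carrier, whose rise led to the choice of the genes, had the largest difference among them. Trf (ENSMUSG00000032554.15, mm10 chromosome 9, 103204001 to 103230444, minus strand) encodes transferrin, the secreted protein that carries ferric iron. It had 8353, 15575 and 9320 reads in naive replicates 1 to 3 and 83883, 40769 and 34155 in SOHU replicates 1 to 3. In CPM, reads scaled to a common library size, these were 321.6, 669.2 and 412.1 in naive and 3485, 1828 and 1388 in SOHU libraries. SOHU replicate 1 stood highest by far, and the lowest SOHU library was still above the highest naive library, naive replicate 2. The means were 467.6 ± 180.3 and 2234 ± 1106 CPM (SD, n = 3 each), a 4.78-fold difference with a log2 fold change of 2.26 (SE 0.38). Without SOHU replicate 1 the log2 fold change was 1.78, and without naive replicate 2 it was 2.62. Ranked by CPM per kb of exon, Trf went from place 414 of 17687 in the naive mean to place 34 in the SOHU mean.

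Markers of the cell types known to make Trf were read in the same libraries. The Müller glia and astrocyte share of counts was also highest in SOHU replicate 1, at 3.42%, against 2.62 and 1.94% in SOHU replicates 2 and 3, and was 1.09, 1.38 and 1.29% in the naive libraries. The 6 libraries stood in the same order by this share as by Trf. Apoe, the most abundant gene of the list, had that order too. Glul and Rlbp1, also on the list, did not, and neither passed (edgeR adjusted p = 0.361 and 0.061). Rlbp1 departed from it only in naive replicates 1 and 3. Glul stood at 2017, 1782 and 1643 CPM in naive and 3182, 1887 and 1746 CPM in SOHU libraries. Pigment epithelium markers, from another known source of Trf, made up 0.00272 to 0.00288% of naive and 0.00212 to 0.00446% of SOHU counts. None of the 8 tested of 11 passed in edgeR (median log2 fold change 0.03), with 1 at an unadjusted p under 0.05 and 1 and 0 past the adjusted threshold in DESeq2 and limma-voom, and the defining gene Rpe65 had 11 reads in naive replicate 1, 4 in SOHU replicate 1 and 0 in the rest. The most abundant genes of that list, Rgr and Ttr, were 1.79- and 2.34-fold higher without passing (edgeR adjusted p = 0.167 and 0.0815). Both were highest in SOHU replicate 1, as Trf was. Tyrp1 of the same list was lowest in that library (0.914 CPM), and 4 of the 8 tested had a positive log2 fold change. Of the oligodendrocyte list Mobp and Olig2 were at 0 in every library, Mog had 1 to 10 reads, and the list's rise in share, from 0.0106 to 0.0136% to 0.0163 to 0.0367%, came with a 2.44-fold higher Cnp, the 1 gene of 4 tested that passed. The part of the glial and pigment epithelium markers in the difference of Trf was not tested.

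**Figure D2:**
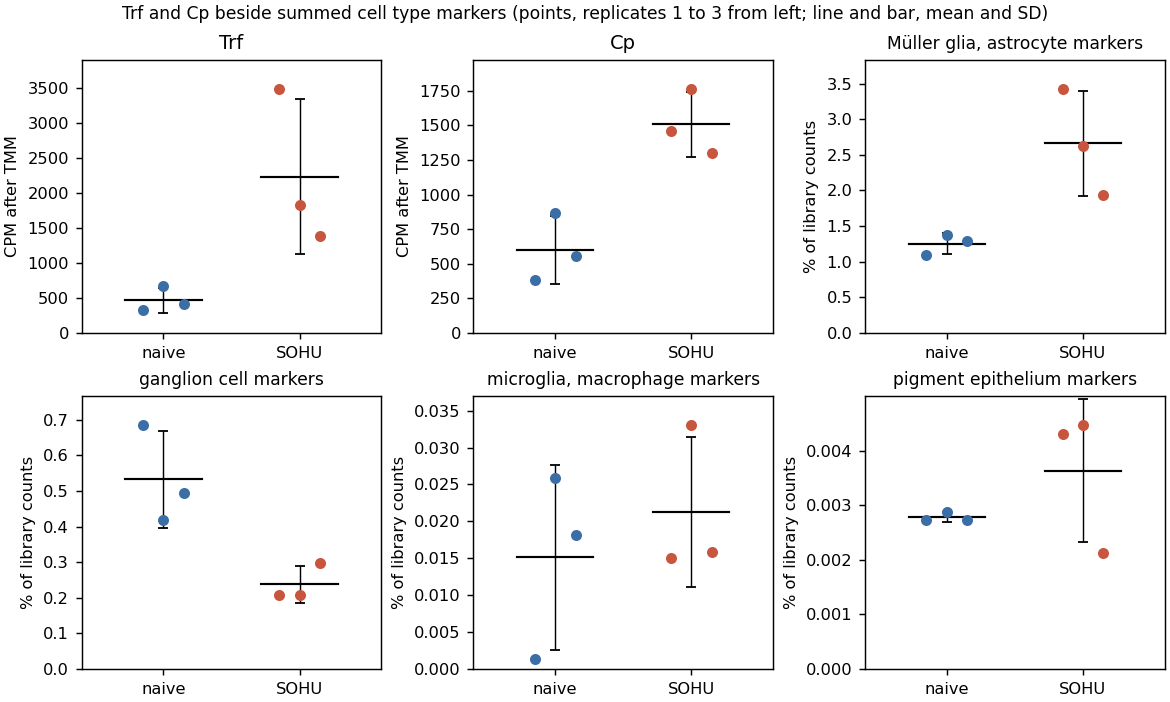
Trf and Cp (CPM after TMM) beside the summed counts of 4 marker lists (percent of library counts) in each library. Points are replicates 1 to 3 from the left, and lines with bars are the mean and SD. The Müller glia and astrocyte list is higher in all SOHU libraries (1.94 to 3.42%) than in the naive libraries (1.09 to 1.38%), the ganglion cell list is lower, and the microglia and pigment epithelium lists overlap.

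Among the genes of iron uptake the receptor Tfrc fell and both metal transporters did not pass. Tfrc (ENSMUSG00000022797.16, chromosome 16, 32608920 to 32632794, plus strand) encodes transferrin receptor 1, which brings transferrin into cells, and carries the 4 hairpins shown above. It stood at 40.5, 55.6 and 47.9 CPM in naive replicates 1 to 3 and at 17.1, 30.5 and 31.7 CPM in SOHU replicates 1 to 3. SOHU replicate 1, which had the most Trf, had the least Tfrc, and the groups did not overlap. The fall was 1.82-fold, with a log2 fold change of -0.86 (SE 0.23, 95% interval -1.39 to -0.34, edgeR adjusted p = 0.0404). The adjusted p rose to 0.0977, 0.133 and 0.118 without naive replicates 1, 2 and 3 and to 0.0818 without SOHU replicate 2. Ganglion cell markers fell in the same libraries by a median of -1.06 on the log2 scale. Amacrine, horizontal and bipolar cell markers had a median of -0.61 on that scale, with 4 lower and 1 higher of 14 tested in edgeR. The part of these cell types in the fall of Tfrc was not tested. Tfrc is also known from brain endothelium, and 3 of 10 tested endothelial and pericyte markers rose (median log2 fold change 0.99). These were Kdr (2.50-fold), Flt1 (2.14-fold) and Pdgfrb (2.42-fold), and Pecam1 and Cdh5 had at most 13 and 2 reads in any library. Slc2a1, the most abundant of the list after Kdr, was 1.34-fold higher and did not pass (edgeR adjusted p = 0.0882). The log2 fold change was positive in 9 of the 10. The part of these cells in the values of Tfrc was not tested.

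Slc11a2 (ENSMUSG00000023030.16, chromosome 15, 100387898 to 100425072, minus strand), the endosomal metal transporter DMT1, stood at 27.8, 30.8 and 28.1 CPM in naive and 37.9, 33.5 and 35.2 CPM in SOHU libraries. Its groups did not overlap, yet the 1.23-fold difference did not pass (log2 fold change 0.30, SE 0.14, 95% interval -0.01 to 0.60, edgeR adjusted p = 0.172). Slc39a14 (ENSMUSG00000022094.15, chromosome 14, 70303469 to 70351425, minus strand), the zinc and iron importer ZIP14, stood at 13.3, 19.3 and 15.6 CPM in naive and 18.1, 17.7 and 16.99 CPM in SOHU libraries. The SOHU values lay inside the naive range, with a log2 fold change of 0.13 (SE 0.18, 95% interval -0.28 to 0.53, edgeR adjusted p = 0.668) that was 0.00 without naive replicate 1.

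Of the ferritin chains the light chain gene passed and the heavy chain gene did not. Ftl1 (ENSMUSG00000050708.16, chromosome 7, 45457944 to 45459884, minus strand) encodes the light chain, which helps form the iron core. It stood at 279.8, 247.5 and 257.3 CPM in naive and 431.6, 384.8 and 334.4 CPM in SOHU libraries, with no overlap. The rise was 1.47-fold (log2 fold change 0.55, SE 0.14, 95% interval 0.25 to 0.86, edgeR adjusted p = 0.0295). It missed the threshold without naive replicates 1, 2 or 3 (adjusted p = 0.102, 0.1 and 0.127), without SOHU replicate 1 (0.0543) or without SOHU replicate 2 (0.0775). Processed copies of Ftl1 share its sequence, so some reads may be split: Ftl1-ps1 and Ftl2-ps held 3.33 and 1.86% as many reads as Ftl1, with log2 fold changes of 0.59 (adjusted p = 0.0692) and 0.79 (adjusted p = 0.0777).

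Fth1 (ENSMUSG00000024661.7, chromosome 19, 9980598 to 9985098, plus strand) encodes the heavy chain, the ferroxidase of ferritin. It stood at 622.2, 561.1 and 580.5 CPM in naive and 757.9, 590.0 and 533.8 CPM in SOHU libraries. SOHU replicate 1 was above and SOHU replicate 3 below the whole naive range. The difference of 0.09 on the log2 scale (SE 0.15, 95% interval -0.25 to 0.44) had an edgeR adjusted p = 0.721 and turned to -0.07 without SOHU replicate 1. Both chains carry nearly the same hairpin in the 5′ UTR, shown above.

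Since both chains were read in the same library, their ratio does not depend on scaling between libraries. The ratio of Fth1 to Ftl1, in counts per kb of exon, was 0.859, 0.876 and 0.872 in naive replicates 1 to 3 and 0.678, 0.592 and 0.617 in SOHU replicates 1 to 3. The groups did not overlap, SOHU being lower, and the naive libraries differed little among themselves. The means were 0.869 ± 0.0087 and 0.629 ± 0.0443 (SD, n = 3 each), a difference of -0.47 on the log2 scale. By a two-sided exact permutation test p was 0.1, which is as small as 3 against 3 can reach, with a Benjamini-Hochberg adjusted p = 0.3 over the 3 ratios tested. Leaving out any library gave -0.52 to -0.43 on the log2 scale. The level of the ratio depends on the lengths used: per kb of the principal transcript, a length chosen after seeing the data, the means were 1.46 and 1.06.

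The ratio of Trf to Tfrc, carrier to receptor, is given as a description because Trf led to the choice of the genes. It was 14.8, 22.4 and 16.0 in naive replicates 1 to 3 and 380.2, 111.5 and 81.7 in SOHU replicates 1 to 3. SOHU replicate 1 stood apart through both a high Trf and a low Tfrc, and without it the log2 difference was 2.45 in place of 3.12.

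**Figure D3:**
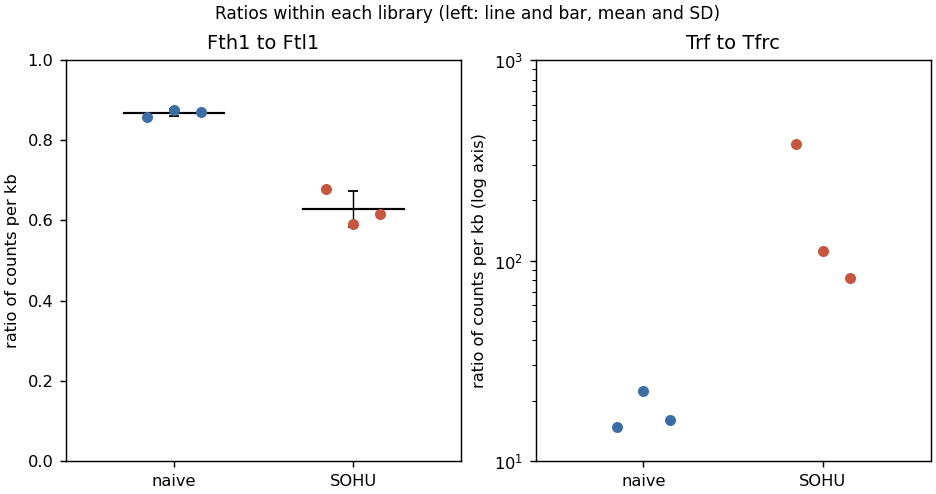
Ratio of Fth1 to Ftl1 (left, linear axis from 0) and of Trf to Tfrc (right, log axis) in counts per kb of exon within each library. Points are replicates 1 to 3 from the left, and on the left lines with bars are the mean and SD. The ferritin ratio is 0.859 to 0.876 in naive and 0.592 to 0.678 in SOHU libraries.

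Of the export genes the ferroxidase Cp rose, and the exporter Slc40a1 was barely read. Cp (ENSMUSG00000003617.16, chromosome 3, 19957054 to 20009145, plus strand) encodes ceruloplasmin, a copper enzyme that oxidises iron as it leaves the cell. It stood at 381.3, 868.6 and 553.5 CPM in naive and 1459, 1762 and 1301 CPM in SOHU libraries, with no overlap. Its highest SOHU library was replicate 2 and not, as for Trf, replicate 1, while naive replicate 2 was the highest naive library for both. The rise was 2.51-fold (601.1 ± 247.1 to 1507 ± 234 CPM, SD, n = 3 each; log2 fold change 1.33, SE 0.27, 95% interval 0.72 to 1.93, edgeR adjusted p = 0.0172). Its adjusted p passed 0.05 without naive replicate 1 (edgeR, 0.0785), naive replicate 3 (0.0808), SOHU replicate 1 (0.0531) or SOHU replicate 2 (0.0671), and with no filter on low counts (0.0517). The median change of Müller glia and astrocyte markers was 1.09 on that scale, and their part in the rise of Cp was not tested. By CPM per kb Cp went from place 1034 to place 357 of 17687.

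Slc40a1 (ENSMUSG00000025993.10, chromosome 1, 45908068 to 45926523, minus strand) encodes ferroportin, the known exporter of iron. It had 6, 59 and 36 reads in naive replicates 1 to 3 and 167, 57 and 47 in SOHU replicates 1 to 3. The groups overlapped, with naive replicate 1 far below and SOHU replicate 1 far above the other libraries. The estimate of 1.40 on the log2 scale (SE 0.71, 95% interval -0.21 to 3.00) had an edgeR adjusted p = 0.218, and was 0.62 without SOHU replicate 1 and 0.865 without naive replicate 1. The microglial gene Cx3cr1, from a cell type known to make ferroportin, had 7, 31 and 9 reads in naive and 116, 23 and 23 in SOHU libraries and was likewise lowest and highest in those same libraries. Of the microglia and macrophage list 6 of 17 tested rose (median log2 fold change 1.75), and the summed share overlapped, from 0.00138 to 0.0259% in naive and from 0.0151 to 0.033% in SOHU libraries. Its most abundant gene Cd74, of antigen presentation, went another way than Cx3cr1, with 2.93, 182.3 and 127.3 CPM in naive and 2.04, 171.3 and 71.7 CPM in SOHU libraries, so that replicate 1 of both groups stood far below the other libraries. The part of these cells in the values of Slc40a1 was not tested. The ratio of Slc40a1 to Slc11a2 overlapped between the groups (log2 difference 1.43; two-sided exact permutation p = 0.5, adjusted p = 0.75).

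Neither sensor passed. Aco1 (ENSMUSG00000028405.9, chromosome 4, 40143081 to 40198338, plus strand) encodes IRP1, which works as a cytosolic aconitase when it holds an iron-sulphur cluster. It stood at 29.4, 29.7 and 28.2 CPM in naive and 47.3, 27.5 and 28.3 CPM in SOHU libraries. SOHU replicate 1 alone stood above the naive libraries, and the log2 fold change of 0.24 (SE 0.21, 95% interval -0.23 to 0.72, edgeR adjusted p = 0.475) was -0.07 without it. Ireb2 (ENSMUSG00000032293.8, chromosome 9, 54863789 to 54912530, plus strand) encodes IRP2, which is broken down when iron is plentiful. It stood at 17.5, 18.5 and 23.0 CPM in naive and 19.8, 27.4 and 24.6 CPM in SOHU libraries. The groups overlapped through SOHU replicate 1 and naive replicate 3 (log2 fold change 0.28, SE 0.18, 95% interval -0.13 to 0.69, edgeR adjusted p = 0.324). The ratio of Aco1 to Ireb2 was 3.17 ± 0.515 in naive and 3.19 ± 1.602 in SOHU libraries (SD, n = 3 each; two-sided exact permutation p = 0.9, adjusted p = 0.9).

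**Figure D4:**
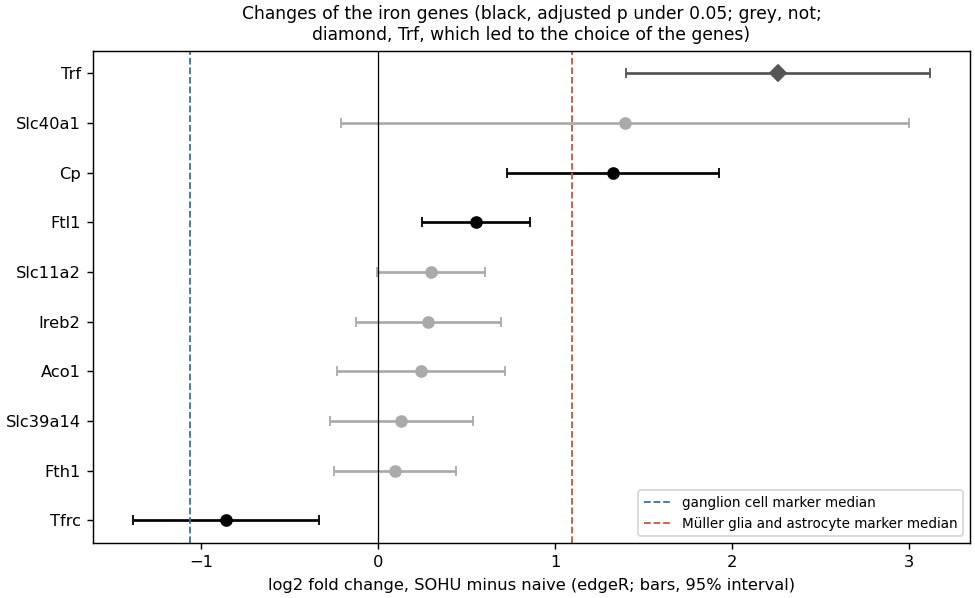
Log2 fold change of each iron gene (x axis, SOHU minus naive, edgeR) with its 95% interval. Black points passed an adjusted p under 0.05, grey points did not, and the diamond marks Trf, given as a description. The interval of Trf is not read as a test, since its rise led to the choice of the genes. Dashed lines are the median changes of the ganglion cell (-1.06) and the Müller glia and astrocyte markers (1.09), and Trf, Slc40a1 and Cp lie to the right of the latter.

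Compared by level per kb of exon, the genes formed an upper group of 4 and a lower group of 6. In naive libraries the mean levels were 195.2 for Ftl1, 169.5 for Fth1, 140.9 for Trf and 62.8 CPM per kb for Cp. Trf ranged from 96.9 to 201.6 CPM per kb there and overlapped both ferritin chains, while Fth1 (161.7 to 179.4) stayed below Ftl1 (184.7 to 208.8). The lower group held Tfrc at 7.76, Aco1 at 6.47, Slc11a2 at 4.55, Ireb2 at 2.08, Slc39a14 at 1.52 and Slc40a1 at 0.161 CPM per kb, of which Tfrc and Aco1 overlapped. In SOHU libraries Trf led at 672.8 CPM per kb, before Ftl1 at 286.3, Fth1 at 180.8 and Cp at 157.6, of which Fth1 and Cp overlapped. Tfrc, first of the lower group in naive libraries, came behind Aco1 (7.65) and Slc11a2 (5.59) at 4.27 CPM per kb. With principal transcript lengths Slc11a2 stood above Aco1 in both groups (9.56 and 7.59 in naive, 11.7 and 8.97 CPM per kb in SOHU means), Fth1 stood above Ftl1 in both groups (393.5 and 270.2 in naive, 419.8 and 396.3 CPM per kb in SOHU means), and Trf still led in SOHU libraries at 868.9.

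Within the naive group the coefficient of variation was 38.6% for Trf, 41.1% for Cp and 79.7% for Slc40a1, and 2.68 to 18.9% for the other 7. Within the SOHU group it was 49.5% for Trf, 72.0% for Slc40a1, 32.6% for Aco1, 30.7% for Tfrc and 3.22 to 18.6% for the rest. The 5 genes of mean log2 CPM of at least 5 whose pattern over the 6 libraries was most like Trf were Ust, Mboat2, Plpp3, Decr1 and Anxa4, with Pearson r of 0.996 to 0.998 among 6381 genes compared. They differed by 1.48- to 2.16-fold between the groups, less than the 4.78-fold of Trf. These values describe shape over 2 groups of libraries and carry no test.

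Other genes of iron and haem handling were read from 6 lists of 76 genes, members left out, of which 67 were tested. A total of 8 rose and 1 fell, beside the 8.02% and 5.93% of all genes tested, and the median log2 fold change was 0.09. In uptake and reduction, 2 of 10 tested rose and 1 fell. Tfr2, the second transferrin receptor and an iron sensor of liver, fell from 14.5, 11.9 and 15.7 CPM in naive to 4.03, 6.19 and 8.17 CPM in SOHU libraries (log2 fold change -1.19, SE 0.26, edgeR adjusted p = 0.0219). Both transferrin receptors thus passed on the lower side. Hfe, a partner of the transferrin receptors, rose 1.98-fold (adjusted p = 0.0214), and the metalloreductase gene Steap1 rose 2.49-fold from about 3 CPM (2.96 to 3.65 CPM in naive libraries, adjusted p = 0.0236).

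In the export and systemic list 1 of 5 tested passed, Heph, which encodes hephaestin, the membrane-bound relative of ceruloplasmin. It rose from 11.01, 16.0 and 16.1 CPM in naive to 44.3, 28.7 and 25.1 CPM in SOHU libraries (2.27-fold, log2 fold change 1.19, SE 0.24, edgeR adjusted p = 0.0178), so that both retinal ferroxidase genes of iron export were higher. None of 6 genes of ferritin handling and iron sensing passed in edgeR, and none of 24 of mitochondrial iron and iron-sulphur clusters, with medians of -0.01 and 0.07. At an unadjusted p under 0.05 were 0 and 4 of them, and DESeq2 called 0 and 1 and limma-voom 0 and 0. In the haem list 4 of 19 tested rose, among them Hmox1, the haem oxygenase that frees iron from haem, Abcg2, a porphyrin exporter, and Lrp1, the receptor of the haem carrier hemopexin. Hmox1 went from 6.89, 12.5 and 7.07 CPM in naive to 24.7, 25.2 and 22.3 CPM in SOHU libraries (log2 fold change 1.45, SE 0.24, adjusted p = 0.0119). Abcg2 and Lrp1 rose 2.10- and 1.72-fold (adjusted p = 0.0203 and 0.0281). Of 3 further mRNAs with a known iron-responsive element, Epas1, which encodes HIF-2α, rose 2.02-fold (43.2, 45.9 and 46.7 to 92.3, 97.4 and 85.1 CPM; adjusted p = 0.00858), while the others did not pass, Cdc42bpa with a log2 fold change of -0.22 (adjusted p = 0.301).

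All 9 of these calls were lost without naive replicate 1 and without naive replicate 3, where edgeR called 0 genes of the whole table. In these refits 3919 and 4251 genes had an unadjusted p under 0.05. Without SOHU replicate 2, 8 of the 9 were lost, Epas1 being the exception, without naive replicate 2, 6 were lost, and without SOHU replicate 1, 2 were lost, among them Lrp1 (adjusted p = 0.0521).

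**Figure D5:**
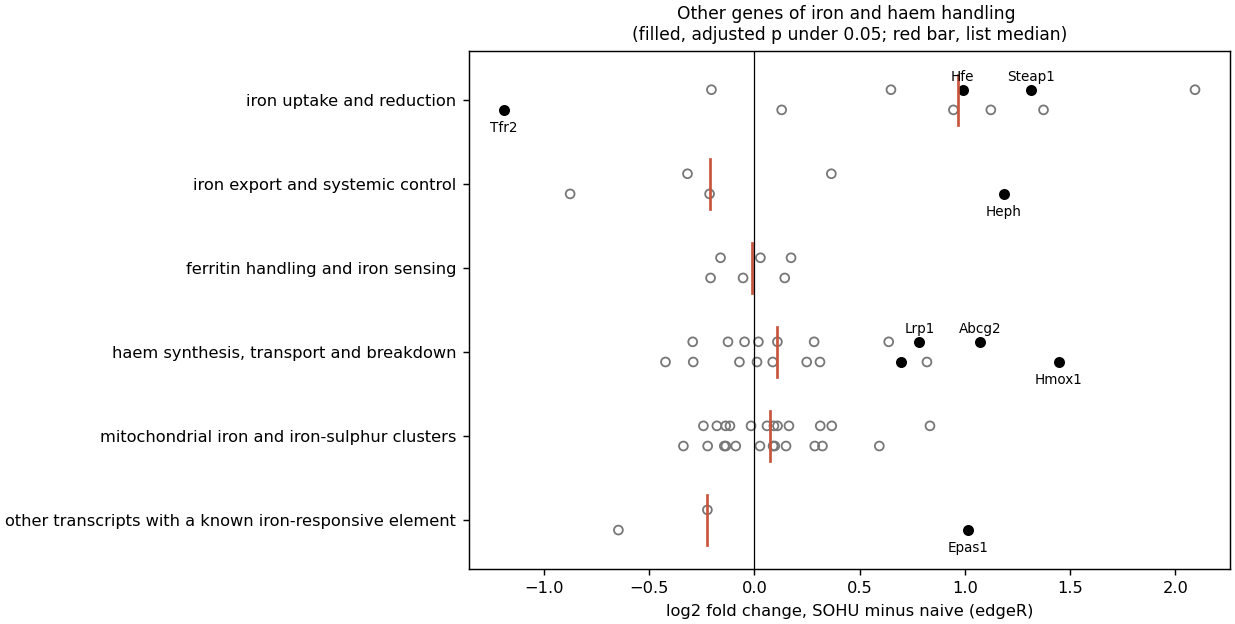
Log2 fold change (x axis, SOHU minus naive, edgeR) of the 67 tested genes in 6 lists of iron and haem handling (y axis). Filled points passed an adjusted p under 0.05, open points did not, names mark the genes given in the text, and red bars are list medians. Tfr2 is the only filled point below 0, and the ferritin handling and mitochondrial lists have none.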

How the data were processed

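RNA of 6 anti-HA pull-downs from mouse retina (3 naive, 3 SOHU) was sequenced. The deposited values are whole-number counts of reads for each gene. The submitters' processing notes name featureCounts, HISAT2, HISAT, Trim Galore, bcl2fastq 2.17, MultiQC and the build mm10. Tool settings, annotation, strand and the handling of multiply aligned reads: not given in the sources used here. Reads of close copies and of overlapping genes are therefore uncertain. No gene sharing exon bases with a member held more than 1.64% of its reads. Symbols came from GENCODE M21 by Ensembl identifier, for 55154 of 55335 genes.

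Genes were filtered with filterByExpr, which left 17687 genes, and scaled by TMM (factors 0.943 to 1.04). The main test was edgeR's robust quasi-likelihood F-test (version 4.0.16; R 4.3.3) with group as sole term, Benjamini-Hochberg adjustment over all genes tested and a threshold of 0.05. Changes are SOHU minus naive, and 95% intervals are from the same fit. Slc40a1 is the only member with fewer than 346 reads in any library. Ratios were tested by exact permutation. Alternatives were DESeq2 1.42.0, limma-voom 3.58.1, other scalings and filters, a replicate block and leaving out each library. Named genes were the members, those of each pathway list past the threshold (up to 4 a direction), the 2 most abundant of cell type lists and the 5 most like Trf. Cx3cr1, Rpe65, Mog, Mobp, Olig2, Flt1, Pdgfrb, Pecam1, Cdh5, Cdc42bpa, Steap4, Glul, Rlbp1, Tyrp1 and the ferritin copies were named after their values were seen. Some genes that the rule names are not reported here. Members and lists were chosen with earlier results of these data known. The fit was checked on simulated data.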

Additional observations from a re-analysis of the deposited data

How the results depend on the processing

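Of the 9 members other than Trf 2 passed higher and 1 lower; leaving out each library in turn, counted without Trf after seeing the data, gave 0 to 2 higher and 0 to 1 lower. No count over all 10 is given, since the rise of Trf led to the choice of the genes. The pathway genes gave 0 to 10 higher and 0 to 2 lower, and all genes 0 to 2051 higher and 0 to 1845 lower. With no filter on low counts 1 of the 9 members was higher, and 3 pathway genes and 1675 of all genes were lower. DESeq2 gave 3 and 1731 lower. Leaving out 1 library gave log2 fold changes of -0.003 (without naive replicate 1) to 0.2913 for Slc39a14, -0.0706 (without SOHU replicate 1) to 0.2127 for Fth1 and -0.0658 (without SOHU replicate 1) to 0.3943 for Aco1; the cause was not tested. Other scalings (DESeq2 size factors, upper quartile) turned no member and changed no call among the 9 members other than Trf. Samples share only a replicate number: with it as a block in edgeR 3 of the 9 members other than Trf passed, as without it, and 2070 of all genes in place of 2467; 1 of the 9 pathway calls was lost. Deviations of same-numbered libraries correlated at 0.163, 0.251 and 0.004, and naive replicate 3 was closest to SOHU replicate 2 (0.095). Depth limits Slc40a1, with 6 to 167 reads.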

Other observations

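A ferritin relative outside the lists also differed, and was named after its values were seen. Fthl17f, a heavy chain-like gene, had 28, 39 and 32 reads in naive replicates 1 to 3 and 98, 65 and 61 in SOHU replicates 1 to 3, with a log2 fold change of 1.18 (SE 0.33, edgeR adjusted p = 0.0423). Its reads were 0.372% of those of Fth1, from which some may stem, and the other Fthl17 genes and pseudogenes had at most 2 reads in a library. The metalloreductase gene Steap4 stood at 1.69, 35.3 and 8.36 CPM in naive and 30.8, 127.7 and 34.9 CPM in SOHU libraries, and did not pass (log2 fold change 2.09, SE 1.24, adjusted p = 0.325).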
